A study of Mus musculus with 22 samples.

Results

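The 10 genes that hepatocytes use to supply the plasma with carrier proteins and apolipoproteins were followed in the livers of newborn mice given 1 of 6 treatments. They are Alb, Ttr, Trf, Rbp4, Gc, Ahsg, Apoa1, Apoa2, Apob and Apoc3, chosen by name as 10 of the 55291 genes in the deposited tables, and all 10 passed the filter on low counts in every comparison. The livers came from 22 male WT C57BL/6 pups that received an intravenous injection on postnatal day 1 and were dissected 36 hours later. The groups were PBS in 4 pups, AAV9.empty in 4 (AAV9 capsids that carry no vector genome) and AAV9.EGFP in 4, a vector that expresses EGFP from the CB promoter, which is active in most cell types. A group of 3 received rAAV9-ST3GAL5.v1, whose CB promoter expresses human ST3GAL5 cDNA, the coding sequence of GM3 synthase. Another 3 received what is called the E332K vector here, labelled like rAAV9-ST3GAL5.v1 with E332K added, and 4 received rAAV9-ST3GAL5.v2, which restricts the same cDNA through the neuronal Syn1 promoter and binding sites for miR-122, a hepatocyte miRNA. Vector transcripts were not analysed here.

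Plasma proteins other than antibodies are made almost entirely by hepatocytes, which synthesise them with a signal peptide and export them through the endoplasmic reticulum and the Golgi apparatus. Carriers hold small or insoluble cargo such as iron, thyroxine, retinol and fatty acids in solution, and apolipoproteins build and steer the particles that move cholesterol and triglycerides. Several of these genes, among them Alb, Ttr, Trf and Rbp4, are known as negative acute-phase genes, whose transcripts fall in the liver during inflammation.

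The carriers have distinct cargo. Alb (ENSMUSG00000029368.10, GRCm38 chromosome 5, 90460897 to 90476602, plus strand) encodes albumin, the main carrier of fatty acids. Ttr (ENSMUSG00000061808.4, chromosome 18, 20665280 to 20674321, plus strand) encodes transthyretin, which carries thyroxine and also binds the retinol carrier encoded by Rbp4 (ENSMUSG00000024990.13, chromosome 19, 38116629 to 38125281, minus strand). Trf (ENSMUSG00000032554.15, chromosome 9, 103204001 to 103230444, minus strand) encodes the iron carrier transferrin, and the annotation places Gm20425 over it on the same strand, so that reads of the pair may be shared. Gc (ENSMUSG00000035540.12, chromosome 5, 89417522 to 89457898, minus strand) encodes the vitamin D binding protein. Ahsg (ENSMUSG00000022868.6, chromosome 16, 22891277 to 22899449, plus strand) encodes fetuin-A, which keeps calcium phosphate in solution. Gm30505 overlaps Ahsg on the opposite strand, and because the kit does not mark strand their reads cannot be told apart.

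The apolipoproteins serve 2 particle classes. Apoa1 (ENSMUSG00000032083.8, chromosome 9, 46228580 to 46230466, plus strand) and Apoa2 (ENSMUSG00000005681.12, chromosome 1, 171225054 to 171226379, plus strand) encode the main proteins of high-density lipoprotein. Apob (ENSMUSG00000020609.14, chromosome 12, 7977648 to 8016835, plus strand) encodes the scaffold of very-low-density lipoprotein. Apoc3 (ENSMUSG00000032081.10, chromosome 9, 46232933 to 46235636, minus strand) encodes an inhibitor of triglyceride clearance and lies 2466 bases from the end of Apoa1 on the opposite strand. All 10 are annotated as protein-coding.

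The libraries held 17164502 to 24305788 expected counts, and no label gave a litter or a sequencing batch, so each p-value reflects only the spread among these animals. The tissue was checked by 6 hepatocyte markers outside the set of 10 (Cps1, Fgb, Hnf4a, Serpina1c, Tat and F2), whose summed level was 6968 to 11180 CPM (counts scaled to library size) over all libraries, with none at 0. The Y-linked gene Gm47283 had no count in 9 livers, namely AAV9.empty replicate 4, AAV9.EGFP replicates 1, 2 and 4, all 3 rAAV9-ST3GAL5.v1 livers and rAAV9-ST3GAL5.v2 replicates 3 and 4. What the missing counts reflect in pups labelled male was not tested. This split runs partly with the groups, its part in the results was not tested directly, and the values with it as a covariate stand beside the calls it ends. For rAAV9-ST3GAL5.v1 against PBS and against the E332K vector it coincides with treatment, and the split and the treatment cannot be told apart. In bulk tissue, fewer hepatocytes and less RNA of these genes per hepatocyte cannot be told apart.

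On the length-corrected scale (TPM), the 10 genes spanned a wide range of levels. Alb averaged 31560 TPM over the 22 livers and ranked 4th of all genes. Ahsg at 23920, Trf at 20770, Apoa1 at 19130 and Apoa2 at 15000 TPM ranked 6th to 9th, so 5 of the 9 highest genes belonged to the set. Ttr averaged 6367, Rbp4 3940, Gc 1420 and Apob 584.7 TPM, and Apoc3 was the lowest at 254.4 TPM, rank 401. The 10 genes together took 13.6% to 16.3% of all counts in the PBS, AAV9.empty and AAV9.EGFP livers, 12.3% to 14.2% with rAAV9-ST3GAL5.v2, 11.7% to 12.6% with the E332K vector and 10.2% to 11.4% with rAAV9-ST3GAL5.v1. The share with rAAV9-ST3GAL5.v1 lay below that of every other liver.

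**Figure D1:**
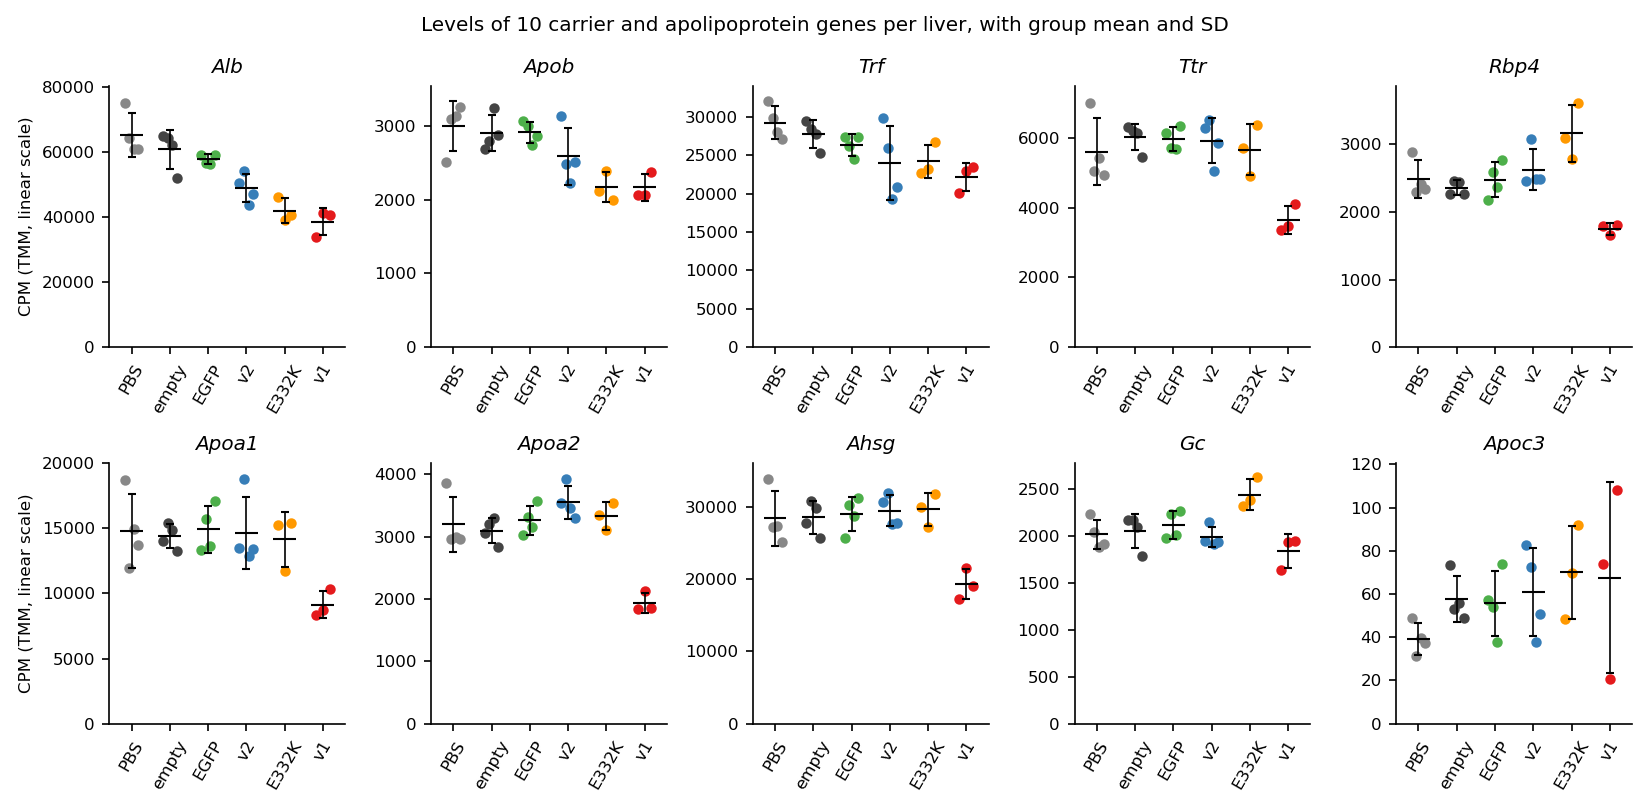
CPM (vertical axis, linear, from 0) of each of the 10 genes in every liver by treatment group, with points for livers and the group mean and SD. Alb falls from a mean of 60730 CPM with AAV9.empty to 38580 with rAAV9-ST3GAL5.v1 and 41950 with the E332K vector, while Ttr, Rbp4, Apoa1, Apoa2 and Ahsg are below every other liver in the rAAV9-ST3GAL5.v1 group.

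The first comparison asked what the ST3GAL5 vector did to these genes beyond the capsid itself. With rAAV9-ST3GAL5.v1 8 of the 10 genes were lower than with AAV9.empty and none was higher. Among all 14876 genes tested, 14.3% were called lower and 13.8% higher at an adjusted p of at most 0.05 (edgeR quasi-likelihood test, Benjamini-Hochberg over all genes). The median log2 fold change of the 10 genes was -0.48, against 0.02 for all genes tested. Ttr, Apoa2, Apoa1 and Alb had the larger changes, Ahsg an intermediate one, and Rbp4, Apob and Trf the smaller ones, with 61.0% to 80.6% of the AAV9.empty level left. No gene of the 10 changed by 2-fold or more.

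Alb reached 64738, 64357, 62032 and 51806 CPM in the 4 AAV9.empty livers. It reached 33939, 41128 and 40663 CPM in the 3 rAAV9-ST3GAL5.v1 livers. Every rAAV9-ST3GAL5.v1 liver was thus below the lowest AAV9.empty liver, and the log2 fold change was -0.64 (SE 0.115, adjusted p = 0.00355), a level 64.0% of that with AAV9.empty. Ttr, the thyroxine carrier, measured 6323, 6202, 6132 and 5463 CPM with AAV9.empty and 3355, 3484 and 4112 CPM with rAAV9-ST3GAL5.v1. The gap between the highest treated and the lowest control liver was wider for Ttr than the spread within either group, and the log2 fold change was -0.71 (SE 0.0962, adjusted p = 0.000977). Rbp4, whose product travels in complex with transthyretin, measured 2265, 2455, 2451 and 2261 CPM with AAV9.empty and 1799, 1653 and 1809 CPM with rAAV9-ST3GAL5.v1. Both groups were tight, and Rbp4 fell by 0.42 on the log2 scale (SE 0.0762, adjusted p = 0.00401).

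The genes of high-density lipoprotein moved by similar amounts. Apoa1 measured 14059, 15420, 14871 and 13279 CPM with AAV9.empty and 8319, 8735 and 10301 CPM with rAAV9-ST3GAL5.v1, with no overlap, the log2 fold change being -0.65 (SE 0.0993, adjusted p = 0.00171). Apoa2 measured 3052, 3205, 3296 and 2837 CPM against 1841, 2122 and 1854 CPM, again with no overlap, at -0.66 (SE 0.0906, adjusted p = 0.00104). Ahsg, the fetuin-A gene, measured 27787, 30838, 29878 and 25758 CPM with AAV9.empty and 17319, 21508 and 19086 CPM with rAAV9-ST3GAL5.v1. Its log2 fold change was -0.55 (SE 0.107, adjusted p = 0.00504), and every treated liver was again the lower.

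Trf and Apob also fell, and of the 8 calls theirs were lost in TPM with a filter on low values. Trf measured 29549, 28514, 27748 and 25384 CPM with AAV9.empty and 20145, 23002 and 23480 CPM with rAAV9-ST3GAL5.v1. The groups did not overlap, and the log2 fold change was -0.31 (SE 0.0937, adjusted p = 0.0348). The call was lost when AAV9.empty replicate 1, 2 or 3 or rAAV9-ST3GAL5.v1 replicate 1 was left out (adjusted p = 0.0556 to 0.105), in TPM (adjusted p = 0.0928) and with Gm47283 as a covariate, at -0.16 (adjusted p = 0.394). Apob measured 2693, 2799, 3249 and 2876 CPM against 2065, 2064 and 2378 CPM, with no overlap, at -0.41 (SE 0.0929, adjusted p = 0.0107). With Gm47283 as a covariate Apob was at -0.36 (adjusted p = 0.0516). In TPM the Apob difference was -0.08 (adjusted p = 0.625), where the median of all genes stood at 0.10.

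Gc and Apoc3 did not pass the test. Gc, the vitamin D carrier, measured 2171, 2169, 2100 and 1791 CPM with AAV9.empty and 1637, 1942 and 1953 CPM with rAAV9-ST3GAL5.v1, so that the groups overlapped at -0.15 (SE 0.0996, adjusted p = 0.31). Apoc3 measured 73.3, 53.0, 55.9 and 48.7 CPM with AAV9.empty. The 3 rAAV9-ST3GAL5.v1 livers were spread from 20.6 CPM in replicate 2 to 73.8 and 108 CPM in replicates 1 and 3, on either side of the AAV9.empty range. The Apoc3 difference of 0.24 (SE 0.415, adjusted p = 0.709) became 0.66 (adjusted p = 0.0183) without rAAV9-ST3GAL5.v1 replicate 2 and -0.27 without replicate 3.

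The same genes were then read in the E332K vector livers, which shared the AAV9.empty controls. Here 2 of the 10 genes were lower and 1 was higher, beside 7.09% lower and 7.93% higher among 14759 genes. Alb measured 46130, 39000 and 40712 CPM, all below the lowest AAV9.empty liver, which gave -0.54 on the log2 scale (SE 0.119, adjusted p = 0.0101). Apob measured 2123, 2390 and 1994 CPM, also below every AAV9.empty liver, at -0.43 (SE 0.107, adjusted p = 0.0185). Rbp4 moved the other way, with 3094, 2784 and 3618 CPM all above the highest AAV9.empty liver, at 0.41 (SE 0.106, adjusted p = 0.0217). The Apob call was lost without AAV9.empty replicate 3 (adjusted p = 0.0719) or E332K replicate 1 (adjusted p = 0.0611) and in TPM, at -0.26 (adjusted p = 0.174). The Rbp4 call was lost without AAV9.empty replicate 1, 3 or 4 (adjusted p = 0.0632, 0.0532 and 0.0519) and in TPM, at 0.29 (adjusted p = 0.0693), where the median of all genes stood at -0.10. The Alb call held with each liver left out and in TPM with a filter on low values.

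The other 7 genes did not pass the test with the E332K vector. Ttr measured 5710, 4907 and 6381 CPM (log2 fold change -0.10, adjusted p = 0.589), Apoa1 15271, 11731 and 15439 CPM (-0.04, adjusted p = 0.868), and Ahsg 30040, 27209 and 31739 CPM (0.04, adjusted p = 0.824). All 3 genes overlapped the AAV9.empty livers. Apoa2 stood at 0.09 (adjusted p = 0.565), Trf at -0.21 (adjusted p = 0.211) and Apoc3 at 0.27 (adjusted p = 0.364). Gc measured 2319, 2387 and 2631 CPM, above every AAV9.empty liver and every liver of the other groups, yet its difference of 0.24 (SE 0.102) had an adjusted p of 0.136.

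**Figure D2:**
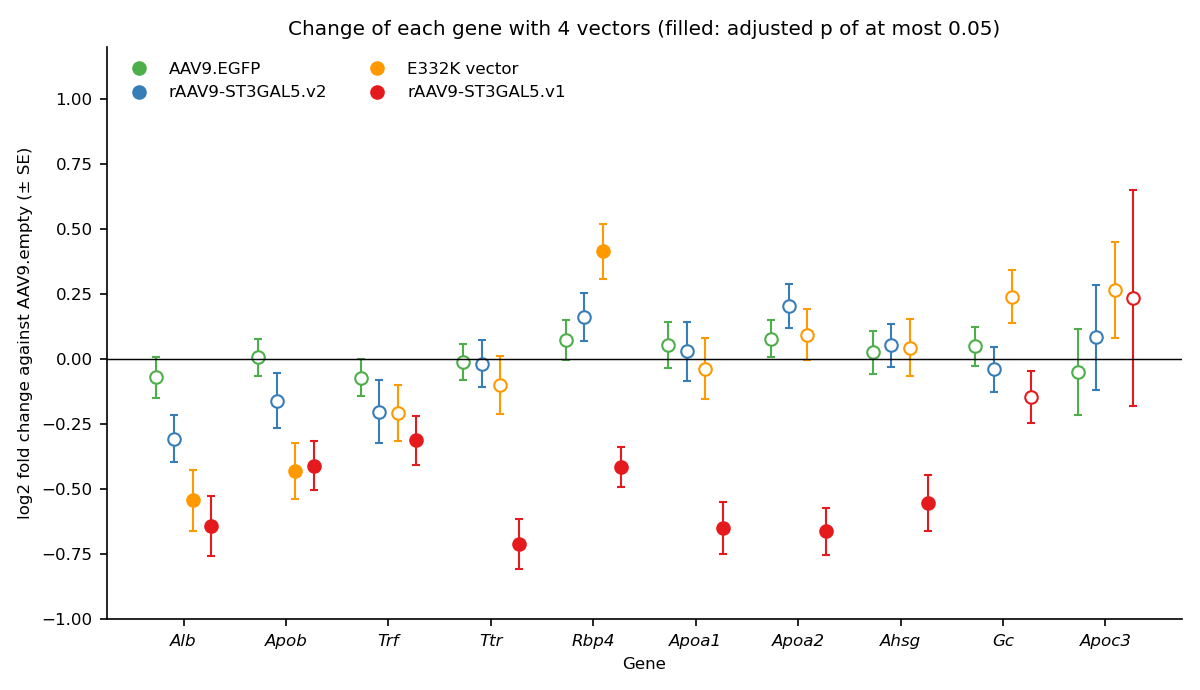
Log2 fold change against AAV9.empty (vertical axis, with SE bars) of the 10 genes with each of 4 vectors, filled symbols marking an adjusted p of at most 0.05. Filled symbols occur for 8 genes with rAAV9-ST3GAL5.v1, all below 0, and for Alb and Apob below and Rbp4 above 0 with the E332K vector, while AAV9.EGFP and rAAV9-ST3GAL5.v2 have none.

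The direct comparison of the CB-driven ST3GAL5 vectors separated the genes further. With rAAV9-ST3GAL5.v1 5 of the 10 were lower than with the E332K vector and none was higher, beside 10% lower and 9.55% higher among 14742 genes. Rbp4 had the largest difference at -0.82 (SE 0.146, adjusted p = 0.00963), with every rAAV9-ST3GAL5.v1 liver at or below 1809 CPM and every E332K liver at or above 2784 CPM. Apoa2 followed at -0.75 (SE 0.137, adjusted p = 0.0104), its E332K livers measuring 3340, 3099 and 3546 CPM. Ttr was at -0.60 (adjusted p = 0.0318), Apoa1 at -0.60 (adjusted p = 0.0424) and Ahsg at -0.59 (adjusted p = 0.04), each with no overlap. Leaving out 1 liver at a time gave 2 to 5 genes called lower. Rbp4 and Apoa2 were called each time, whereas the call of Ttr was lost without rAAV9-ST3GAL5.v1 replicate 1 or E332K replicate 1 or 3, that of Ahsg without rAAV9-ST3GAL5.v1 replicate 1 or 3 or E332K replicate 1 or 3, and that of Apoa1 without any 1 of the rAAV9-ST3GAL5.v1 livers or E332K replicate 1 or 3. Gm47283 counts separated these groups completely. With Gm47283 as a covariate in the fit of all 6 groups Apoa1 was at -0.50 (adjusted p = 0.0814). For Alb the difference between these vectors was -0.09 (SE 0.171, adjusted p = 0.741), for Apob 0.03 (SE 0.133, adjusted p = 0.886) and for Trf -0.09 (SE 0.16, adjusted p = 0.707), and the livers overlapped. Gc stood at -0.38 (adjusted p = 0.0818) with no overlap, and DESeq2 (adjusted p = 0.0184) and the single edgeR fit of all 6 groups (adjusted p = 0.00312) called it lower.

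Alb and Apob were therefore the genes called lower with both CB-driven ST3GAL5 vectors, and Apoa1 and Apoa2 genes called lower with rAAV9-ST3GAL5.v1 alone among the vectors tested against AAV9.empty and also lower than with the E332K vector. Part of their sequence upstream of the RefSeq start site is printed as an example of each (GRCm38.p6, plus strand, RefSeq promoters, found for 7 of the 10 genes). As given above, the Apob calls were lost in TPM. The Apoa1 call against the E332K vector was lost in 5 of 6 fits with 1 liver left out. The windows of Alb and Apoa2 hold 250 bases and end at -1 from the start site, that of Apob holds 221 and ends at -30, and that of Apoa1 holds 200 and ends at -51, whereas the search covered the 250 upstream bases of every gene. Capitals mark matches, on either strand, to the consensus letters of liver factors and of a TATA box: GTTAATNAT for HNF1, TGTTTGC for FOXA, TTGCNNAA for C/EBP and TATAAA.
Alb, chr5:90460620-90460869: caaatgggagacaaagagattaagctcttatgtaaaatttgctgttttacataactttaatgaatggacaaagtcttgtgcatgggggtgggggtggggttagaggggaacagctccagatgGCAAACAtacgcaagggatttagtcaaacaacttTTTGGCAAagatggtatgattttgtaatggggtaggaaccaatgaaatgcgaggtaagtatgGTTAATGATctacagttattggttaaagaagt
Apob, chr12:7977427-7977647: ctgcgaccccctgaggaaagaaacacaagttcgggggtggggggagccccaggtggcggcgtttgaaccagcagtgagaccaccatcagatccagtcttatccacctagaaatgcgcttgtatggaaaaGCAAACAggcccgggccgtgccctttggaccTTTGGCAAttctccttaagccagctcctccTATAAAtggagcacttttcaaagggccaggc
Apoa1, chr9:46228380-46228579: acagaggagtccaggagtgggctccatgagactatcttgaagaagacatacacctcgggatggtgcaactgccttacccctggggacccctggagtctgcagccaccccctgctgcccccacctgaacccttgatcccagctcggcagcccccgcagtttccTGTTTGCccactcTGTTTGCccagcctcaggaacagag
Apoa2, chr1:171224804-171225053: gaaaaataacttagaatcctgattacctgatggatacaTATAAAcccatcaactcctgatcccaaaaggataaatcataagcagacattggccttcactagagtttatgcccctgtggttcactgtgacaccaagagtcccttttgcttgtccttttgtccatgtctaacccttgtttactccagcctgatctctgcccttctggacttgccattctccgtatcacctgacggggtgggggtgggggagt
The Alb and Apob windows both held FOXA letters followed by C/EBP letters, and so did that of Ahsg (at -79 to -73 and -32 to -25), a gene called lower with rAAV9-ST3GAL5.v1 and not with the E332K vector. Alb had GCAAACA (FOXA, other strand) at -128 to -122 and TTTGGCAA (C/EBP, other strand) at -94 to -87 from the start site, followed by GTTAATGAT (HNF1) at -32 to -24. Apob had GCAAACA at -121 to -115 and TTTGGCAA at -90 to -83, followed by TATAAA at -60 to -55. Apoa1 had TGTTTGC at -88 to -82 and again at -75 to -69, and Apoa2 had only TATAAA at -212 to -207. No match overlapped another. Among 32851 mouse promoter windows of 250 upstream bases, 0.737% held the HNF1 letters, 4.3% the FOXA letters, 9.56% the C/EBP letters and 12.4% TATAAA. Of the 7 windows, Alb, Apoa1, Apob and Ahsg held FOXA letters, Alb, Apob and Ahsg C/EBP letters, Alb and Gc HNF1 letters, and Apoa2 and Apob TATAAA. None of the 7 held CAAAGTCCA (HNF4, in 0.384% of all windows) or TTCNNNGAA (STAT, in 7.02%). A match is a description of these letters and does not show binding.

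Because Alb is so abundant, the balance of the other transcripts with it was described as counts per 100 Alb counts of the same library, a measure chosen after the levels were seen. With rAAV9-ST3GAL5.v1 the ratios of Ttr, Apoa1, Apoa2 and Ahsg stayed near those of AAV9.empty, since Alb and these genes were lower together. Ttr was at 9.49 ± 0.889 against 9.96 ± 0.404, Apoa1 at 23.7 ± 2.17 against 23.8 ± 1.61 and Apoa2 at 5.05 ± 0.443 against 5.12 ± 0.341 (mean ± SD, n = 3 and n = 4). Trf was higher relative to Alb at 57.7 ± 1.72 against 45.9 ± 2.13, and Gc at 4.78 ± 0.0531 against 3.39 ± 0.0459, neither with overlap. The ratios of Rbp4, Apob and Apoc3 had higher means by 0.23, 0.23 and 0.60 on the log2 scale, each with overlap. With the E332K vector 7 of 9 ratios, all but those of Apob and Apoc3, lay above every AAV9.empty liver. All 9 share the Alb count, which stood at 68.6% of the AAV9.empty level, so a gene unchanged in CPM also rose as a ratio. Ahsg, for example, was at 0.04 on the log2 scale in CPM and at 0.59 as a ratio. The ratio of Rbp4 was 7.58 ± 1.15 against 3.91 ± 0.359, that of Ahsg 71.0 ± 6.5 against 47.2 ± 2.95, and that of Apoa2 7.97 ± 0.735.

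The rAAV9-ST3GAL5.v2 livers, in which the edgeR test called none of the 10 genes, had 6 of 9 ratios above every AAV9.empty liver, all but those of Trf, Apob and Apoc3. These ratios also share Alb, which stood at 80.9% of the AAV9.empty level there, and are not separate from it. Ttr was at 12.1 ± 0.44, Rbp4 at 5.37 ± 0.386, Apoa2 at 7.28 ± 0.416 and Ahsg at 60.5 ± 1.99 counts per 100 Alb counts. With AAV9.EGFP no ratio was apart from AAV9.empty, and with PBS 3 were lower (Ttr, Apoc3 and Gc). The PBS ratios were not tested. Each vector ratio without overlap with AAV9.empty had an exact two-sided permutation p of 0.0286, the smallest that these group sizes can give. None of the 45 tests run, on 4 vectors against AAV9.empty and on the CB-driven ST3GAL5 vectors against each other, passed after Benjamini-Hochberg adjustment (smallest adjusted p = 0.0858). Group size limited these tests, as 3 against 3 livers cannot give a permutation p below 0.1 and the other group sizes none below 0.0286. A pass after adjustment would have needed many more ratios at that smallest value, so the outcome decides nothing about the ratios.

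**Figure D3:**
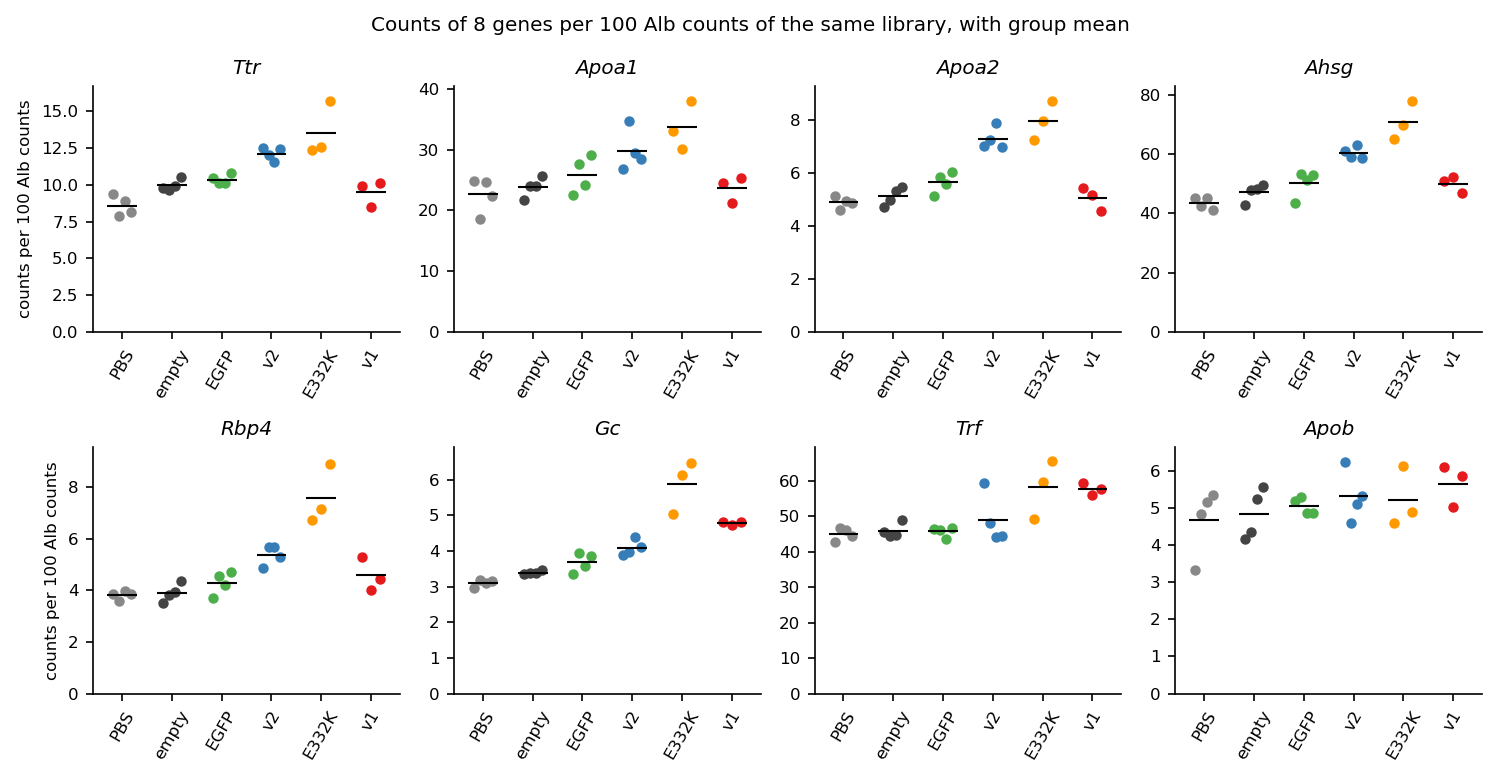
Counts of 8 genes per 100 Alb counts of the same library (vertical axis, linear, from 0) in every liver by group, with a line at the group mean. Ttr, Rbp4, Apoa1, Apoa2, Ahsg and Gc are above every AAV9.empty liver with the E332K vector and with rAAV9-ST3GAL5.v2. Trf is above them with the E332K vector and rAAV9-ST3GAL5.v1, and Gc also with rAAV9-ST3GAL5.v1. All ratios share the Alb count of the library.

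The remaining controls of rAAV9-ST3GAL5.v1 asked whether the choice of control mattered, and all of these comparisons share its 3 livers. Against PBS the count was 8 of 10 lower and 0 higher, beside 12.7% lower and 12.4% higher among 14892 genes, with Alb at -0.74 (SE 0.12, adjusted p = 0.00164) and Apoa2 at -0.71 (SE 0.119, adjusted p = 0.00213). Every PBS liver had Gm47283 counts and no rAAV9-ST3GAL5.v1 liver did. With Gm47283 as a covariate in the fit of all 6 groups Trf (-0.19, adjusted p = 0.368) and Apob (-0.39, adjusted p = 0.0618) were no longer called there. In TPM they also lost their calls (-0.20, adjusted p = 0.128, and -0.06, adjusted p = 0.785), as did Trf without PBS replicate 2, 3 or 4 or rAAV9-ST3GAL5.v1 replicate 1 and Apob without PBS replicate 3 or 4 or rAAV9-ST3GAL5.v1 replicate 1. Apoc3 was at 0.79 (SE 0.401, adjusted p = 0.183) against PBS and at 1.22 (adjusted p = 0.000243) without rAAV9-ST3GAL5.v1 replicate 2. Against AAV9.EGFP, a vector genome with the same promoter, it was 7 lower and 0 higher, beside 15.1% lower and 12.7% higher among 14875 genes. Apoa2 was at -0.75 (SE 0.096, adjusted p = 0.00095) and Ttr at -0.71 (SE 0.0947, adjusted p = 0.00113), and Trf at -0.25 (adjusted p = 0.0795) did not pass, although DESeq2 called it (adjusted p = 0.018). Apob lost its call in TPM (-0.11, adjusted p = 0.29). Against rAAV9-ST3GAL5.v2, which carries the same cDNA, it was 5 lower and 0 higher, beside 11.3% lower and 12.1% higher among 14906 genes. These were Apoa2 at -0.85 (SE 0.115, adjusted p = 0.00191), Ttr at -0.68 (SE 0.129, adjusted p = 0.0072), Apoa1 at -0.66 (SE 0.161, adjusted p = 0.0194), Ahsg at -0.59 (SE 0.132, adjusted p = 0.014) and Rbp4 at -0.56 (SE 0.117, adjusted p = 0.0106). The calls of Apoa1 (adjusted p = 0.0739 and 0.0504) and Ahsg (adjusted p = 0.0535 and 0.0614) were lost without rAAV9-ST3GAL5.v1 replicate 1 and without rAAV9-ST3GAL5.v2 replicate 1. Alb at -0.32 (SE 0.137, adjusted p = 0.126) did not pass, although the livers did not overlap, and was called by DESeq2 (adjusted p = 0.0285) and by the fit of all 6 groups (adjusted p = 0.0111).

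The E332K vector was also set against AAV9.EGFP. Alb (-0.47, SE 0.107, adjusted p = 0.0199) and Apob (-0.43, SE 0.1, adjusted p = 0.0212) were lower and no gene of the set was higher, beside 3.65% lower and 4.25% higher among 14693 genes. Rbp4 at 0.34 (adjusted p = 0.0978) did not pass, with every E332K liver above every AAV9.EGFP liver, and was called higher by DESeq2 (adjusted p = 0.023) and by the fit of all 6 groups (adjusted p = 0.0445). Both calls were fragile, since that of Alb was lost without AAV9.EGFP replicate 2, 3 or 4 or E332K replicate 3, and that of Apob without AAV9.EGFP replicate 1, 2 or 3 or E332K replicate 1.

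With the other vectors and the empty capsid, none of the 10 genes was called in either direction by the edgeR test, and Alb and Apoc3 lay near its threshold in 1 comparison each. For AAV9.EGFP against AAV9.empty, where 0.0553% of 14473 genes were lower and 0.387% higher, the fold changes lay between -0.07 and 0.08, the smallest adjusted p was 0.695, and no gene had an unadjusted p under 0.05. For rAAV9-ST3GAL5.v2 against AAV9.empty, where 2.5% of 14558 genes were lower and 2.88% higher, 2 genes had an unadjusted p under 0.05. They were Alb at -0.31 (SE 0.0912, adjusted p = 0.0701) and Apoa2 at 0.20 (SE 0.0838, adjusted p = 0.175). Alb measured 50343, 54165, 43791 and 47142 CPM in these livers, of which 3 were below every AAV9.empty liver. Alb was called lower here by DESeq2 (adjusted p = 0.014), by a single edgeR fit of all 6 groups (adjusted p = 0.0432), by limma on TPM (adjusted p = 0.0185) and without AAV9.empty replicate 4 (adjusted p = 0.0417) or rAAV9-ST3GAL5.v2 replicate 2 (adjusted p = 0.0378). For AAV9.empty against PBS, where 0.207% of 14476 genes were lower and 0.104% higher, Apoc3 was the only gene with an unadjusted p under 0.05. It measured 49.0, 31.4, 39.4 and 37.3 CPM with PBS and stood at 0.56 (SE 0.132, adjusted p = 0.0866) with the capsid. It was called higher by DESeq2 (adjusted p = 0.00741) and without PBS replicate 1 (0.67, adjusted p = 0.0204).

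Ordered by mean CPM, the groups ran differently for different genes. For Ttr, Rbp4, Apoa1, Apoa2 and Ahsg rAAV9-ST3GAL5.v1 was lowest and did not overlap the next group, and the 5 other groups overlapped their neighbours in the order. For Alb the order was PBS (65240 ± 6729 CPM), AAV9.empty (60730 ± 6071), AAV9.EGFP (57700 ± 1463), rAAV9-ST3GAL5.v2 (48860 ± 4434), the E332K vector (41950 ± 3722) and rAAV9-ST3GAL5.v1 (38580 ± 4023). Only the step from AAV9.EGFP to rAAV9-ST3GAL5.v2 was without overlap. For Gc the E332K vector was highest at 2445 ± 164 CPM and did not overlap the next group, AAV9.EGFP at 2125 ± 150 CPM. Neighbouring groups overlapped throughout for Trf and Apob, whose ranges in rAAV9-ST3GAL5.v2 (19352 to 29850 and 2231 to 3133 CPM) were wide. The 2 livers of that group with the lowest Trf, at 19352 and 20942 CPM, were the 2 without Gm47283 counts. They also had the highest summed level of erythroid markers in the group, 53370 and 50070 CPM against 36040 and 26430 CPM. The part of either was not tested, and in this group they cannot be told apart.

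The counts and TPM of Apob differed in part because the length assigned to it differed. The median of all genes in TPM also shifted, to 0.10 with rAAV9-ST3GAL5.v1 and -0.10 with the E332K vector against AAV9.empty. The ratio of count to TPM gives the effective length that the quantification used, here set relative to that of Alb in the same library and computed after the TPM results were seen. For Apob it was 2.92 to 3.02 with PBS, 2.77 to 3.10 with AAV9.empty and 2.75 to 2.99 with AAV9.EGFP. It was 2.45 to 2.56 with rAAV9-ST3GAL5.v1, 2.18 to 2.52 with the E332K vector and 2.21 to 2.62 with rAAV9-ST3GAL5.v2, so the 3 groups given an ST3GAL5 cDNA lay below all the others. The annotation holds 4 Apob transcripts of 13934, 13369, 2174 and 1118 bases, and a lower value means that a larger share of the Apob transcripts was assigned to the short ones. For Ahsg, with 0.676 to 0.687 over all livers, and Gc, with 0.856 to 0.867, the same ratio was almost constant. Trf ranged from 0.627 to 0.807, with its lowest mean, 0.677 ± 0.0496, in rAAV9-ST3GAL5.v2. Mean Apob levels were 604.1 ± 70.4 TPM with AAV9.empty, 571.2 ± 40.2 TPM with rAAV9-ST3GAL5.v1 and 503.7 ± 59.4 TPM with the E332K vector. Whether the transcripts themselves changed was not tested.

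The genes whose levels ran most like those of the set were found among 2918 genes with a mean of at least 50 CPM, as the smallest root mean square difference of centred log2(CPM + 1) over the 22 livers. Ahsg had the closest neighbour, Proc, the gene of the anticoagulant protein C, at 0.0707. Apoa2 was nearest to Ahsg of the set at 0.0855 and to Apoc4, another apolipoprotein, at 0.0934 outside it. Trf was nearest to Hnf4a, a hepatocyte transcription factor, at 0.0965. Alb was nearest to Mbl1, a mannose-binding lectin of plasma, at 0.116, and within the set to Trf at 0.18. Ttr was nearest to Ptms at 0.0811, Gc to Itm2b at 0.085, Rbp4 to Pccb at 0.088, Apoa1 to Hsd17b10 at 0.103 and Apob to Stard7 at 0.113. Apoc3 had no close neighbour, its nearest being Cbr1 at 0.365. These are descriptions of the same 22 libraries.

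Related genes were counted with the same test, and a count near the share over all genes is no result about a list. With rAAV9-ST3GAL5.v1 against AAV9.empty, 14.3% of all genes tested were lower and 13.8% higher. Of 19 other plasma carriers and binding proteins measured with rAAV9-ST3GAL5.v1, 8 were lower than with AAV9.empty and 4 higher (median log2 fold change -0.32). Igfals, which holds insulin-like growth factors in plasma, was at -1.76 and Igfbp4, a binding protein of the same hormones, at -0.67. Orm1, an acute-phase carrier, rose from 2.06 ± 1.05 to 47.9 ± 27.8 CPM and Orm2 from 0.0135 ± 0.027 to 2.50 ± 1.82 CPM. Of 14 other apolipoproteins 6 were lower and 3 higher (median -0.08). Apoc4 was at -0.84 and Pon1, an enzyme of high-density lipoprotein, at -0.87, whereas Apoc2, the activator of lipoprotein lipase, was at 0.84 and Clu, which encodes clusterin, at 1.24.

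For the next lists the shares over all genes were again 14.3% lower and 13.8% higher. Of 25 genes that assemble, remodel or take up lipoproteins, 9 were lower and 2 higher with rAAV9-ST3GAL5.v1 (median -0.26). Cideb, needed for lipid loading of very-low-density lipoprotein, was at -1.07 and the lipoprotein receptor gene Scarb1 at -0.61, while Plin2, a lipid droplet coat, was at 0.87 and Angptl4, an inhibitor of lipoprotein lipase, at 0.76. Of 17 receptors and intracellular partners of the carriers, 8 were lower and 2 higher (median -0.54), among them Dio1, which converts thyroxine, at -1.21, the albumin receptor gene Fcgrt at -0.73 and the thyroid hormone receptor gene Thra at -0.65. Of 23 transcription factors of hepatocyte genes, 13 were lower and 3 higher (median -0.50), with Onecut1 at -1.74, Foxa2 at -1.48, Cebpd at 1.87 and Cebpb at 2.05. Of 24 secretory pathway genes 2 were lower (the cargo receptor pair Lman1 at -0.47 and Mcfd2 at -0.29) and 1 higher (Sec24d, a vesicle coat, at 0.41), with a median of -0.02. Of 25 acute-phase genes known to rise, 14 were higher and 0 lower (median 0.88), with Saa3 at 1.33 ± 0.556 and 43.0 ± 18.1 CPM, Saa1 at 0.298 ± 0.184 and 43.8 ± 30.4 CPM, and Saa2 at 0.0644 ± 0.0662 and 12.9 ± 7.32 CPM with AAV9.empty and rAAV9-ST3GAL5.v1. Some genes, Orm1 and Orm2 among them, were on both this list and that of the other carriers, so the counts of these lists are not separate.

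With the E332K vector, 5 of the 7 lists held calls in both directions against AAV9.empty, beside 7.09% lower and 7.93% higher among all genes. Lower and higher calls numbered 3 and 5 of 19 other carriers, 0 and 3 of 14 other apolipoproteins (Apoc1, Apoc2 and Clu), 7 and 6 of 25 lipoprotein genes, 2 and 1 of 16 receptors and partners, and 5 and 1 of 23 transcription factors. Acute-phase genes had 1 and 9 of 25. The secretory pathway had 0 and 11 of 24, with the endoplasmic reticulum chaperone genes Pdia4 at 2.14, Hsp90b1 at 2.08, Hspa5 at 1.80 and Calr at 1.32, named after their values were seen. In the direct comparison of rAAV9-ST3GAL5.v1 with the E332K vector, lower and higher calls were 5 and 0 of 19 other carriers, 6 and 2 of 14 apolipoproteins, 5 and 3 of 25 lipoprotein genes, 3 and 1 of 17 receptors and partners, 5 and 3 of 23 transcription factors, 6 and 0 of 24 secretory pathway genes and 0 and 7 of 25 acute-phase genes. Among all genes that comparison had 10% lower and 9.55% higher. With AAV9.EGFP the calls were 0 in all lists but transcription factors (1 of 23 higher) and acute-phase genes (3 of 22 higher). The shares over all genes were 0.0553% lower and 0.387% higher with AAV9.EGFP. With rAAV9-ST3GAL5.v2, where 2.5% of all genes were lower and 2.88% higher, lists with lower calls only were 2 of 18 other carriers, 3 of 25 lipoprotein genes and 4 of 24 secretory pathway genes. Transcription factors had 2 lower and 1 higher of 23, and acute-phase genes 1 lower and 2 higher of 22. Of 14 apolipoproteins 1 was higher, and of 16 receptors and partners 0 were called.

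**Figure D4:**
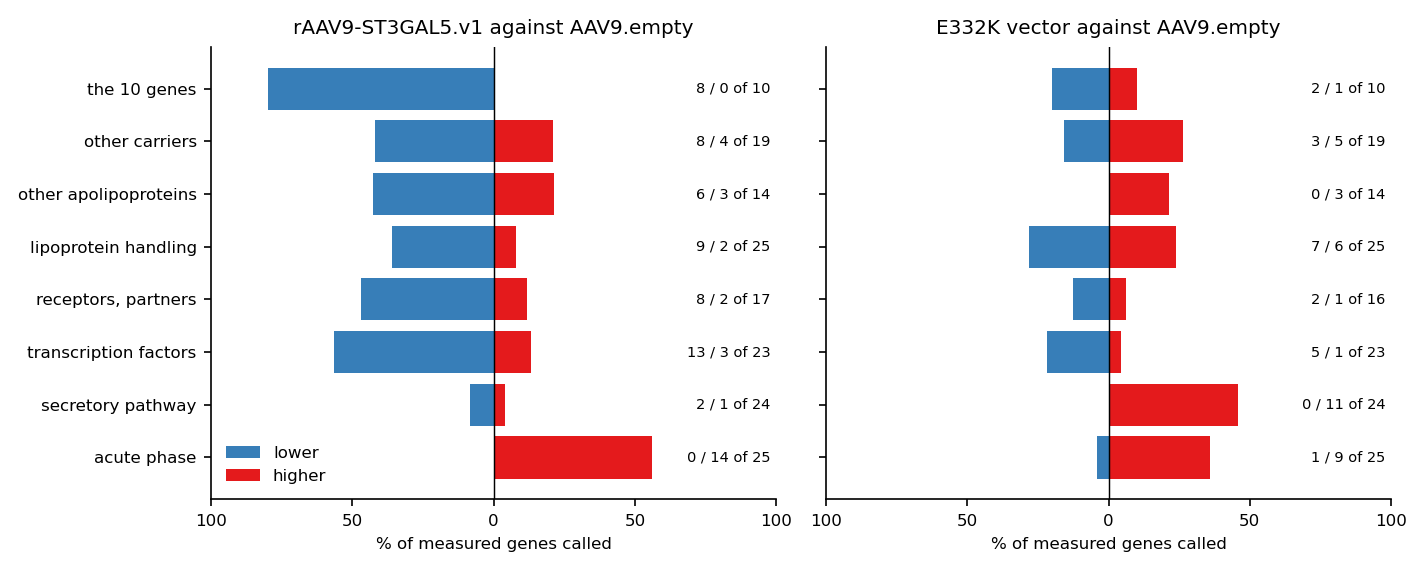
Percent of the measured genes of each list (horizontal axis, lower to the left, higher to the right) called at an adjusted p of at most 0.05 with rAAV9-ST3GAL5.v1 and with the E332K vector against AAV9.empty. The 10 carrier and apolipoprotein genes have 8 lower and 0 higher calls with rAAV9-ST3GAL5.v1 but 2 lower and 1 higher with the E332K vector, where 11 of 24 secretory pathway genes are higher. Over all genes tested, 14.3% are lower and 13.8% higher with rAAV9-ST3GAL5.v1, and 7.09% and 7.93% with the E332K vector.

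Markers of other liver cells also differed between groups, not always the groups in which the 10 genes did. Their part in the results was not tested. Against AAV9.empty, 14.3% of all genes were lower and 13.8% higher with rAAV9-ST3GAL5.v1. The shares were 7.09% and 7.93% with the E332K vector, and 2.5% and 2.88% with rAAV9-ST3GAL5.v2. All 10 neutrophil markers were higher with rAAV9-ST3GAL5.v1 than with AAV9.empty, and their summed level was 2630 to 2914 CPM against 1751 to 1904 CPM. It was 2130 to 2638 CPM with the E332K vector, 1893 to 2658 CPM with AAV9.EGFP and 1524 to 2288 CPM with rAAV9-ST3GAL5.v2. The AAV9.EGFP range thus overlapped those of AAV9.empty and rAAV9-ST3GAL5.v1. Of 7 cholangiocyte markers 3 were higher with rAAV9-ST3GAL5.v1 (summed level 126 to 180 against 54.8 to 83.6 CPM). Of 10 Kupffer cell and monocyte markers 4 were lower and 2 higher, and the summed levels overlapped (789.6 to 1128 against 933.6 to 1326 CPM). The Kupffer cell and monocyte sums with the E332K vector (738.8 to 913.7 CPM, 3 markers lower and 1 higher) and with rAAV9-ST3GAL5.v2 (713.1 to 823.7 CPM, 4 lower and 0 higher) were below every AAV9.empty liver. Of 8 sinusoidal endothelial markers 3 were lower and 2 higher with rAAV9-ST3GAL5.v1 (335.1 to 410.9 against 395.3 to 481.1 CPM), 0 and 1 with the E332K vector (396.2 to 451.8 CPM) and 1 and 0 with rAAV9-ST3GAL5.v2 (326.1 to 422.7 CPM). Of 8 stellate markers 1 was lower and 1 higher with rAAV9-ST3GAL5.v1 (818.8 to 932.3 against 808.6 to 988.2 CPM), and 3 were lower and 1 higher with the E332K vector, whose sums of 613.3 to 777.2 CPM were below every AAV9.empty liver. Of 9 erythroid markers 2 were higher with rAAV9-ST3GAL5.v1, with overlapping sums of 39040 to 45600 and 37850 to 47160 CPM. The erythroid sums were spread more widely with the E332K vector (27820 to 59270 CPM) and with rAAV9-ST3GAL5.v2 (26430 to 53370 CPM). The lowest were those of E332K replicate 3 and rAAV9-ST3GAL5.v2 replicate 2. Of the 6 hepatocyte markers outside the set 5 were lower and Fgb was higher with rAAV9-ST3GAL5.v1. Their median log2 fold change was -0.41. Fgb is also among the acute-phase genes counted above, and it averaged 2835 CPM with AAV9.empty. The summed level, which includes Fgb, was 7583 to 11180 CPM and overlapped that with AAV9.empty, 6968 to 8236 CPM. No marker was at 0 in every library of any group.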

How the data were processed

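The expected counts were made by the authors, who trimmed reads with Trimmomatic, aligned them with STAR and quantified them with RSEM in DolphinNext on mm10 and GENCODE (versions and release not given in the sources used here). They estimate the reads of each gene and carry no depth scaling. TPM, deposited by the authors alongside, corrects for transcript length. Libraries were made from oligo(dT)-selected liver RNA with a kit that does not mark strand.

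Expected counts were rounded to whole numbers (5.69% were not whole). Each of 10 comparisons was fitted on its 2 groups with edgeR 4.0.16 (R 4.3.3), using TMM scaling, filterByExpr and a quasi-likelihood F-test. P-values were adjusted by Benjamini-Hochberg across every gene tested, and a gene was called at an adjusted p of at most 0.05. CPM used TMM factors of all 22 libraries. Alternatives used DESeq2 1.42.0, limma 3.58.1 on log2(TPM + 1) or log2(TPM + 0.1) with or without a mean TPM of at least 1, other scaling and filters, a fold minimum of 2, a replicate block, a single edgeR fit of all 6 groups and each liver left out. Gm47283 as a covariate in a fit of all 6 groups was added after the data were seen. It compares rAAV9-ST3GAL5.v1 mainly with the livers that also lack Gm47283. The scripts were tested on simulated data. Sequences are from RefSeq (GRCm38.p6), gene positions from GENCODE vM21. The genes and lists were chosen with earlier results of these data known. Named genes were the 10 of the set, up to 4 per list with the smallest adjusted p with rAAV9-ST3GAL5.v1 against AAV9.empty, and the nearest gene of each of the 10. Of these, 1 gene is not reported here. No deposited column belonged to a sample outside the 22.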

Additional observations from a re-analysis of the deposited data

Results flagged for a closer look

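In the 40 groups of 4 livers formed by the 10 genes, 4 had one liver set apart from the others by Dixon's ratio (the gap to the nearest liver divided by the range, above its 95% critical value), and chance gives about 1 in 20. Replicate 2 of rAAV9-ST3GAL5.v2 was the highest of its group for Rbp4 (3078 CPM, ratio 0.952), Apoa1 (18746 CPM, ratio 0.9) and Gc (2149 CPM, ratio 0.857). Replicate 1 of PBS was the highest of its group for Apoa2 (3857 CPM, ratio 0.962).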

How the results depend on the processing

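The 10 fold changes of rAAV9-ST3GAL5.v1 and of the E332K vector against AAV9.empty and those called in the other comparisons, 47 in all, were recomputed under 747 alternatives, and 9 changed sign, none of them a called change. Apoc3 with rAAV9-ST3GAL5.v1 against AAV9.empty was at -0.0943 with the replicate block and at -0.27 to 0.66 with 1 liver left out, the lowest without rAAV9-ST3GAL5.v1 replicate 3. With the E332K vector against AAV9.empty, Apoa1 was at -0.0912 to 0.0799 with 1 liver left out (above 0 without AAV9.empty replicate 2 or E332K replicate 2), and Ahsg at -0.00429 with the replicate block, -0.00337 to 0.10 with 1 liver left out (below 0 without AAV9.empty replicate 4) and -0.0761 in each of 3 limma fits on TPM. DESeq2, median-of-ratios size factors and a fit of all 6 groups changed the side of the threshold for none of these 47. DESeq2 and the fit of all 6 groups did call genes in other comparisons that the main test did not, as given beside those results.

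Replicate numbers did not pair the livers, since in no comparison was every same-numbered pair correlated above 0.1. The replicate block ended the Trf call of rAAV9-ST3GAL5.v1 against AAV9.empty (adjusted p = 0.0563) and the Trf and Apob calls against PBS (adjusted p = 0.103 and 0.0966), and it kept only Apoa2 against rAAV9-ST3GAL5.v2 (the other 4 at adjusted p = 0.0584 to 0.071). It gave 1 lower and 0 higher for E332K against AAV9.empty, 1 lower for rAAV9-ST3GAL5.v2 against AAV9.empty, 1 higher for AAV9.empty against PBS, 1 lower when rAAV9-ST3GAL5.v1 was set against rAAV9-ST3GAL5.v2, 3 lower when it was set against E332K, and 0 for E332K against AAV9.EGFP. No count reached a fold of 2 (0 in all 10 comparisons). Filtered limma fits on TPM, with either pseudocount, gave 1 lower and 0 higher for E332K against AAV9.empty, 1 lower for rAAV9-ST3GAL5.v2 against AAV9.empty, 2 lower for rAAV9-ST3GAL5.v1 against E332K and 1 lower for E332K against AAV9.EGFP. Without a filter limma on TPM called 1 lower for rAAV9-ST3GAL5.v1 against AAV9.empty and against AAV9.EGFP and 0 in the other comparisons, testing 24690 to 25363 genes. DESeq2 called 1 lower (Alb) for rAAV9-ST3GAL5.v2 against AAV9.empty, 1 higher (Apoc3) for AAV9.empty against PBS and 1 higher (Rbp4) for E332K against AAV9.EGFP; the fit of all 6 groups gave the first and the last of these. With no filter on counts, 1 was higher for AAV9.empty against PBS and 1 lower for E332K against AAV9.EGFP. The cause of these moves was not tested.

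Leaving out 1 liver gave, for rAAV9-ST3GAL5.v1, 7 to 8 lower and 0 to 1 higher against AAV9.empty, 6 to 8 lower and 0 to 1 higher against PBS, 7 lower and 0 to 1 higher against AAV9.EGFP, 3 to 5 lower against rAAV9-ST3GAL5.v2 and 2 to 5 lower against E332K. It gave 1 to 2 lower and 0 to 1 higher for E332K against AAV9.empty, 0 to 2 lower for E332K against AAV9.EGFP, 0 to 1 lower for rAAV9-ST3GAL5.v2 against AAV9.empty and 0 to 1 higher for AAV9.empty against PBS. The groups of 3 and 4 livers and, for Apoc3, its low counts limit the precision.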
